A study of Mus musculus with 6 samples.

Results

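Transcripts of 9 complement cascade genes, C3, C4b, C2, Cfb, C1ra, C1s1, Serping1, C3ar1 and C5ar1, were followed in mouse vagal jugular-nodose ganglia, where sensory neurons of the vagus nerve have their cell bodies. The genes were taken by symbol, and all 9 were found among the 32719 genes of the count files. The treated group was 3 ganglion libraries from wild type C57BL/6J males which, by the protocol, carried a subcutaneous osmotic pump that released S961, a peptide that blocks the insulin receptor, in PBS at 10 nmol per week for 2 weeks. The control group was 3 libraries of the same genotype, and that their pumps held PBS alone rests on the titles and the protocol, because the treatment label names S961 for all 6 libraries. The drug reached the whole animal, and the age of the mice is not given. Nothing in the labels says whether a replicate is 1 animal or a pool, so each p-value measures only the spread between these libraries.

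Complement is a cascade of plasma and tissue proteins in which proteases cleave one another in turn and leave fragments of C3 and C4 covalently attached to the surface they mark. The classical route starts when C1q binds its target and activates the proteases C1r and C1s, which cleave C4 and C2. The alternative route uses factor B to amplify cleavage of C3, and the small fragments C3a and C5a act on receptors of myeloid cells. The liver makes most of the circulating proteins, while macrophages, fibroblasts, fat cells and glia also express some of these genes. In nerve tissue complement is best known for tagging synapses and myelin debris for removal by phagocytes.

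The 5′ flanks of C3 and C1s1 are shown because C3 had the widest difference between the groups of the 9 genes and C1s1 is one that did not separate them. RefSeq (GRCm38.p6) gave an entry for 5 of the 9 genes. Each stretch is the 250 bases before the annotated start, on the minus strand at chr17:57228137-57228386 for C3 and chr6:124542360-124542609 for C1s1. Capitals mark matches, on either strand, to the core TTGCNNAA bound by C/EBP factors, a core spelled out after the C3 flank had been read.
C3: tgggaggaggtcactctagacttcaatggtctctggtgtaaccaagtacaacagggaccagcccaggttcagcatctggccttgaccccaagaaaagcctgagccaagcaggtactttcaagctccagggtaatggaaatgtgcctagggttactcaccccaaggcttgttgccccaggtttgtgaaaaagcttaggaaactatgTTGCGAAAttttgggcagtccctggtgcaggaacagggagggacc
C1s1: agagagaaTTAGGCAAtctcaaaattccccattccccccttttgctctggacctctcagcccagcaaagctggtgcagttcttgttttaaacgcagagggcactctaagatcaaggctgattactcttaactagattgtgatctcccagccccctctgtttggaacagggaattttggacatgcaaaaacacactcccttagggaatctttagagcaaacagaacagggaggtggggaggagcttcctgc
The match lay 45 bases before the start of C3 and 242 bases before that of C1s1, and 9.56% of 32851 promoter flanks of this length held one. C1s1 has another annotated start, whose flank at chr6:124542322-124542571 held no match, and neither did the flanks of C1ra, C3ar1 and C5ar1. The STAT core TTCNNNGAA, searched on both strands, was in neither flank and in 7.02% of all flanks. Consensus letters for NF-kB and for the interferon response element, held by 1.41% and 2.98% of flanks, were in neither as well, while the flank of C3ar1, the C3a receptor gene, had an NF-kB match 14 bases before its start.

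The 6 libraries held 12898607 to 33522486 counts in genes. Treated replicate 3 was the smallest and stood apart: across genes its log2 levels correlated with those of the other libraries at 0.920 to 0.944, against 0.968 to 0.989 among the other 5. The label for tissue reads spinal cord, but the summed level of 10 vagal sensory neuron markers was 4153 to 5275 CPM in treated and 4720 to 5187 CPM in control libraries. The 8 spinal cord markers summed to 13.2 to 16.0 CPM in treated and 11.3 to 14.0 CPM in control libraries, most of it from Aqp4. Levels are given as CPM, counts scaled to library size with TMM factors. Among 12 fat cell markers 11 were highest in treated replicate 3, where they summed to 822 CPM, against 35.0 and 120 CPM in treated replicates 1 and 2 and 22.8 to 69.8 CPM in controls. The 12 macrophage markers summed to 407 CPM in treated replicate 3, against 70.1 and 134 CPM in treated replicates 1 and 2 and 65.6 to 115 CPM in controls. The 8 hepatocyte markers behaved otherwise: they summed to 235 CPM in treated replicate 1, against 3.07 and 24.1 CPM in treated replicates 2 and 3 and 1.88 to 21.4 CPM in controls.

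Whether complement transcripts differ in ganglia after infusion of S961 was asked by comparing treated with control libraries. Each of the 9 genes had a log2 fold change (treated over control) above 0, and their median was 0.90, where 52.8% of the 16019 genes tested were positive and the median of all was 0.02. None of the 9 passed edgeR's quasi-likelihood test at an adjusted p of 0.05, the lowest adjusted p being 0.675, and 0% of all tested genes passed. At an unadjusted p under 0.05 there were 3 of 9 (C3, C4b and Cfb), where 3.99% of all genes were higher and 2.67% lower at that level. DESeq2 called 1 of the 9, C4b, where it called 0.556% of all genes, and limma-voom called 0, also with sample weights, where 0.0499% of all genes were called. The 9 genes had 0 calls too with no filter on low counts, without treated replicate 1 and without treated replicate 3, against 0.0941%, 0.0437% and 0.0537% of all genes. Adding the replicate number as a block called 0.00624% of all genes, which was C3 alone. For 2 genes, C3 and C4b, the lowest treated library exceeded the highest control, as it did for 7.07% of genes tested. All 9 genes were at their highest in treated replicate 3, as were 34.4% of all genes tested. Leaving out treated replicate 3 gave a median of 0.16 over the 9 genes, and leaving out treated replicate 1 gave 1.31.

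**Figure D1:**
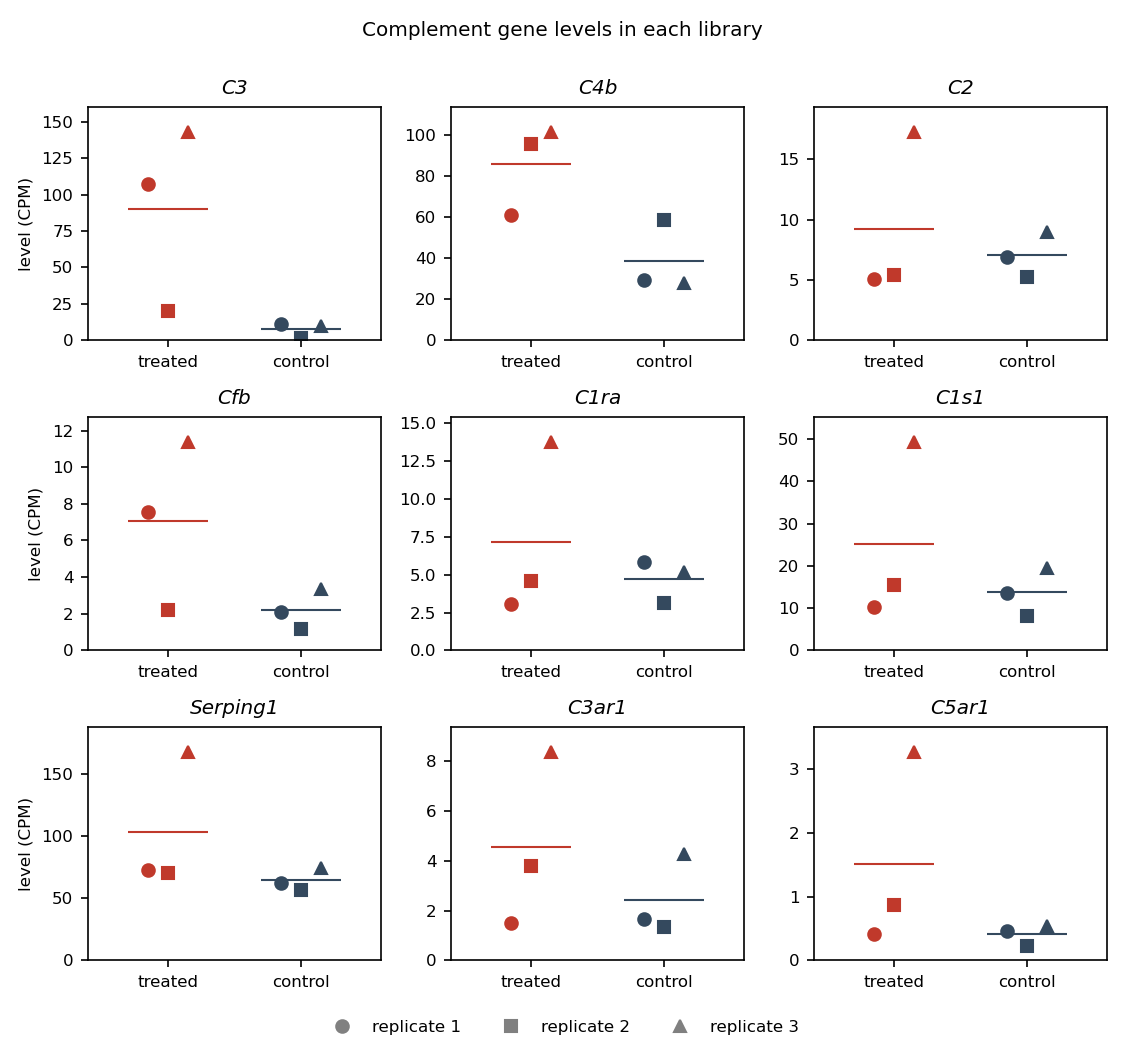
Level of each complement gene in CPM (linear axes from 0) in 3 treated and 3 control libraries; points are libraries, symbols are replicate numbers and lines are group means. Treated replicate 3 is the highest point in all 9 panels, and the groups do not overlap for C3 and C4b.

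C3 encodes the protein on which all complement routes converge. Its gene (ENSMUSG00000024164) lies on chromosome 17 at 57203970 to 57228136, minus strand, GRCm38. C3 had 3608, 579 and 1796 counts in treated replicates 1, 2 and 3, against 201, 49 and 151 counts in control replicates 1, 2 and 3. In CPM these were 107, 20.2 and 143 in treated and 11.5, 1.88 and 10.2 in control libraries. The groups did not overlap, and the lowest treated library was still above the highest control, although the treated values differed widely among themselves. The mean was 90.1 ± 63.1 CPM in treated and 7.87 ± 5.23 CPM in control libraries (SD, n = 3 each). This gave a log2 fold change of 3.54 ± 1.02 (SE), or 11.7-fold, at an edgeR adjusted p of 0.685. The exact permutation p (two-sided) was 0.1, the smallest that 3 against 3 can give.

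The library with many hepatocyte transcripts was also one of 2 with much C3. Alb, which encodes albumin, was at 154, 0.557 and 8.99 CPM in treated replicates 1, 2 and 3, against 12.8, 0.308 and 4.73 CPM in control replicates 1, 2 and 3. Fgb, the fibrinogen beta chain, was at 37.3 CPM in treated replicate 1, against 0.279 and 1.51 CPM in treated replicates 2 and 3. Treated replicate 2 had 3.07 CPM of hepatocyte markers, below control replicates 1 and 3, while its fat cell sum of 120 CPM and its C3 of 20.2 CPM were both above all 3 controls. In treated replicate 3 the hepatocyte sum of 24.1 CPM was also above all 3 controls, the highest of which had 21.4 CPM. Of that sum 5.89 CPM came from Cyp2e1, at 0.192 to 0.878 CPM in controls and the only 1 of the 8 markers highest in treated replicate 3. Among the others in that library, Alb, Apoa2 and Serpina1a were below control replicate 1, and Apoa1, Ttr, Fgb and Ahsg above it. Control replicate 2 was the lowest library both for C3 and for the hepatocyte and fat cell sums. For C3 the log2 fold change was 3.37 ± 1.21 (SE) if treated replicate 1 was left out and 3.07 ± 1.20 if treated replicate 3 was. With treated replicate 2 alone against the controls, assumed to vary as the controls do, it was 1.39 ± 1.20, with an edgeR adjusted p of 0.918. The part of hepatocyte or fat cell transcripts in the C3 difference was not tested.

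**Figure D2:**
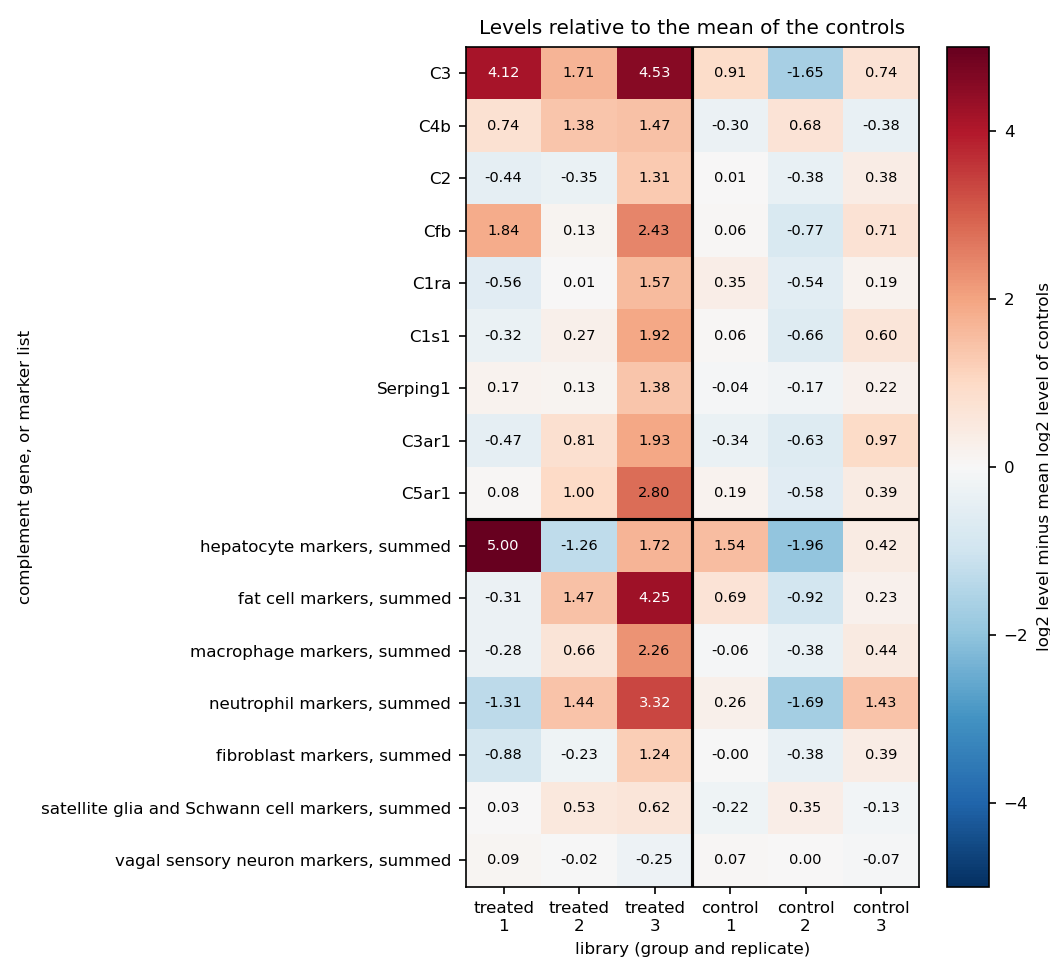
Log2 level of each complement gene (upper block) and log2 summed CPM of 7 marker lists (lower block) in each library, minus the mean of the 3 controls; the number in each cell is that difference. C3 is high in treated replicates 1 and 3, hepatocyte markers in treated replicate 1, and fat cell, macrophage and neutrophil markers in treated replicate 3.

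Upstream of C3, C4b encodes the mouse C4 protein, which is cleaved by C1s and forms part of the classical C3 convertase. C4b (ENSMUSG00000073418) lies on chromosome 17 at 34728380 to 34743882, minus strand. Its level was 61.4, 95.8 and 102 CPM in treated replicates 1, 2 and 3, against 29.7, 58.6 and 28.2 CPM in control replicates 1, 2 and 3. The groups did not overlap, but treated replicate 1 and control replicate 2 lay close together. For C4b the log2 fold change was 1.14 ± 0.34 (SE), or 2.21-fold, at an edgeR adjusted p of 0.675, with an exact permutation p of 0.1. DESeq2 gave an adjusted p of 0.0371 for a log2 fold change of 1.14, and over the settings tried the adjusted p ran from 0.0371 to 0.995. Its log2 fold change was 1.00 without treated replicate 3 and 1.29 with treated replicate 2 alone against the controls. The 10 satellite glia and Schwann cell markers, 8 of them higher on average in treated ganglia, summed to 2086, 2943 and 3132 CPM in treated replicates 1, 2 and 3. They summed to 1757, 2595 and 1867 CPM in control replicates 1, 2 and 3, so control replicate 2, the control with the most C4b, was also the control with the most of these glial transcripts. Their part in the C4b difference was not tested. Of the 100-base stretches of the longest C4b transcript, 16.5% occur unchanged in a transcript of the neighbouring gene C4a, which was not analysed here, so how reads of the copies were divided is uncertain.

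Among the initiating proteases of the classical route, C1r and C1s form a complex with C1q. C1ra (ENSMUSG00000055172) lies on chromosome 6 at 124512405 to 124523443, plus strand, and C1s1 (ENSMUSG00000038521) at 124530345 to 124542359, minus strand. C1ra was at 3.07, 4.60 and 13.8 CPM in treated replicates 1, 2 and 3, against 5.85, 3.12 and 5.20 CPM in control replicates 1, 2 and 3. C1s1 was at 10.4, 15.6 and 49.3 CPM in treated replicates 1, 2 and 3, against 13.5, 8.15 and 19.6 CPM in control replicates 1, 2 and 3. For both genes only treated replicate 3 lay above the controls, and treated replicate 1 was below control replicates 1 and 3. For C1ra, treated replicate 1 was also just below control replicate 2 and was the lowest library of all. Log2 fold changes of 0.58 ± 0.57 (SE) for C1ra and 0.86 ± 0.66 for C1s1 turned to -0.29 and -0.07 without treated replicate 3. Near-identical copies touch both genes: 34.5% of the 100-base stretches of C1ra occur in C1rb and 7.90% of those of C1s1 in C1s2. C1rb had 2, 3 and 5 counts in treated replicates 1, 2 and 3, against 13, 24 and 5 counts in control replicates 1, 2 and 3, and did not pass the filter on low counts. C1s2 had 4, 18 and 23 counts in treated replicates 1, 2 and 3, against 11, 18 and 6 counts in control replicates 1, 2 and 3. With the counts of C1rb added to C1ra and those of C1s2 to C1s1, the log2 fold changes were 0.42 ± 0.56 (SE) and 0.84 ± 0.66.

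C2 is the protease that C1s cleaves to complete the classical convertase. Its gene (ENSMUSG00000024371, chromosome 17, 34862604 to 34898265, minus strand) was at 5.06, 5.40 and 17.3 CPM in treated replicates 1, 2 and 3, against 6.94, 5.27 and 8.99 CPM in control replicates 1, 2 and 3. Treated replicate 1 was the lowest library of all and treated replicate 3 the highest. The log2 fold change of 0.37 ± 0.51 (SE) was the smallest of the 9 genes and was -0.42 without treated replicate 3. Cfb encodes factor B, the C2 counterpart in the alternative route. Its gene (ENSMUSG00000090231, chromosome 17, 34856374 to 34862518, minus strand) was at 7.53, 2.23 and 11.4 CPM in treated replicates 1, 2 and 3, against 2.12, 1.15 and 3.38 CPM in control replicates 1, 2 and 3. Treated replicates 1 and 3 lay above all controls and treated replicate 2 among them, the same 2 libraries that were high for C3. The log2 fold change of Cfb was 1.67 ± 0.64 (SE), at an edgeR adjusted p of 0.737, with an exact permutation p of 0.2. It was 1.59 without treated replicate 1, 1.17 without treated replicate 3 and 0.03 with treated replicate 2 alone.

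The annotated readthrough gene Gm20547 runs across C2 and Cfb on the same strand, and its exons cover 42.8% of the exonic bases of C2 and 79.5% of those of Cfb. Of its 3902 exonic bases, 1656 are also exonic in C2 and 2246 in Cfb, which leaves it no exonic base of its own. Gm20547 had 390, 180 and 337 counts in treated replicates 1, 2 and 3. It had 136, 150 and 164 counts in control replicates 1, 2 and 3, more than Cfb in every library. Reads from C2 or Cfb can fit Gm20547 as well, so these counts do not show how abundant a readthrough transcript is. How the authors assigned reads that fit both is not given in the sources used here, and the absolute levels of C2 and Cfb are uncertain for that reason. On the opposite strand, exons of Zbtb12 cover 4.16% of C2.

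Serping1 encodes the C1 inhibitor, which inactivates C1r and C1s. Its gene (ENSMUSG00000023224) lies on chromosome 2 at 84765387 to 84775444, minus strand. Serping1 was at 72.8, 70.7 and 168 CPM in treated replicates 1, 2 and 3, against 62.7, 57.1 and 74.9 CPM in control replicates 1, 2 and 3. Apart from treated replicate 3 the libraries lay within a narrow band, and control replicate 3 was above treated replicates 1 and 2. The log2 fold change was 0.67 ± 0.36 (SE) at an edgeR adjusted p of 0.742, and it was 0.15 ± 0.11 without treated replicate 3. The 10 fibroblast markers were all highest in treated replicate 3, summing to 2358 CPM there, against 541 and 850 CPM in treated replicates 1 and 2 and 763 to 1302 CPM in controls. Their part in the level of Serping1, C1ra and C1s1 in that library was not tested.

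The anaphylatoxin receptors are found chiefly on myeloid cells. C3ar1, the C3a receptor (ENSMUSG00000040552, chromosome 6, 122847138 to 122856161, minus strand), was at 1.52, 3.80 and 8.35 CPM in treated replicates 1, 2 and 3, against 1.66, 1.35 and 4.26 CPM in control replicates 1, 2 and 3. C5ar1, the C5a receptor (ENSMUSG00000049130, chromosome 7, 16246743 to 16259540, minus strand), had 14, 25 and 41 counts in treated replicates 1, 2 and 3, against 8, 6 and 8 counts in control replicates 1, 2 and 3. In CPM C5ar1 was at 0.417, 0.871 and 3.26 in treated and 0.459, 0.231 and 0.541 in control libraries. The groups overlapped for both receptors: treated replicate 1 lay among the controls, and for C3ar1 treated replicate 2 was below control replicate 3 as well. The log2 fold change was 0.90 ± 0.69 (SE) for C3ar1 and 1.85 ± 0.85 for C5ar1, at edgeR adjusted p-values of 0.778 and 0.737, and these were 0.16 and 0.68 without treated replicate 3. All 12 macrophage markers were higher on average in treated ganglia, and 11 were highest in treated replicate 3. Of the 12 neutrophil markers 7 passed the filter on low counts and 8 were highest in that library. The 12 summed to 57.0 CPM there, against 2.29 and 15.5 CPM in treated replicates 1 and 2 and 1.77 to 15.3 CPM in controls. Not all were raised: Ly6g had 0 counts and Retnlg 1 count in treated replicate 3, and Mmp8 was highest in control replicate 3. In bulk tissue more cells of a type and more RNA per cell cannot be told apart, and the part of myeloid transcripts in the receptor levels was not tested.

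**Figure D3:**
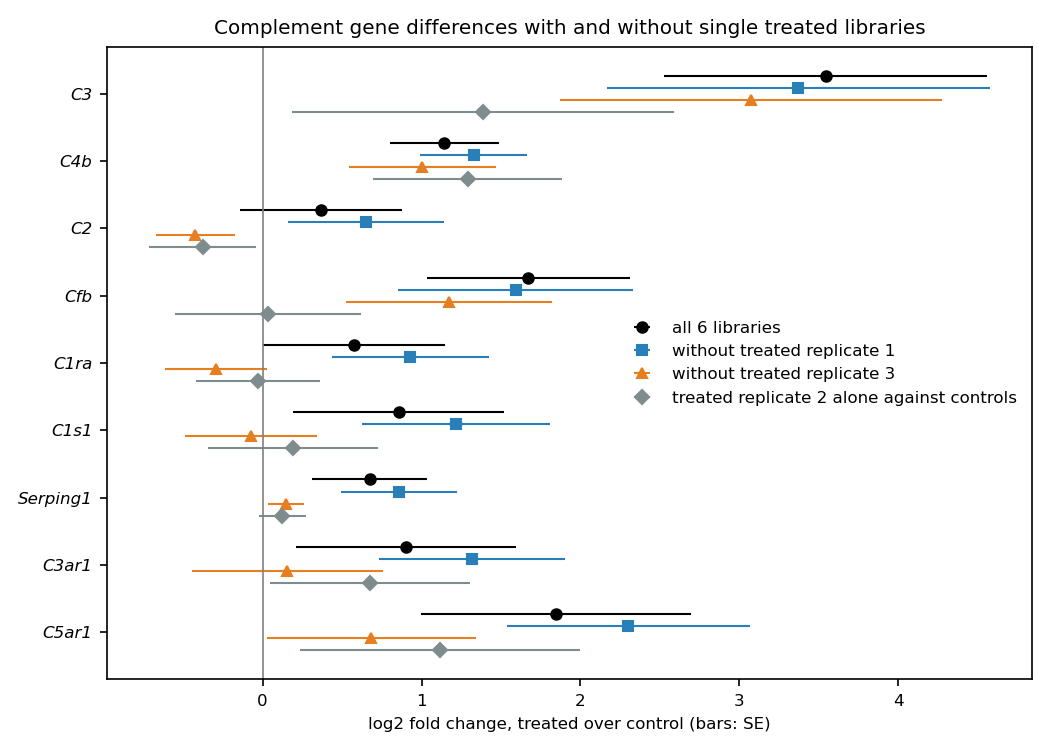
Log2 fold change (treated over control, bars are SE) of each complement gene with all 6 libraries, without treated replicate 1, without treated replicate 3, and with treated replicate 2 alone against 3 controls. C2, C1ra and C1s1 cross to negative values without treated replicate 3, C4b stays between 1.00 and 1.33, and C3 is at 1.39 with treated replicate 2 alone.

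Per kilobase of exon, Serping1 had the highest level of the 9 genes in both groups, at 44.7 ± 23.9 CPM per kb in treated and 27.9 ± 3.90 CPM per kb in control libraries (SD, n = 3 each). It did not overlap the gene next to it in either group. In treated libraries C3 came next at 17.5 ± 12.3 CPM per kb and C4b after it at 15.1 ± 3.82, with overlapping ranges. In controls C4b came next at 6.82 ± 3.01 CPM per kb and C1s1 after it at 4.40 ± 1.83. There C3 came after C2 and C1ra at 1.53 ± 1.02, its range overlapping those of C2, C1ra, Cfb and C3ar1. The receptors were lowest in both groups, with C3ar1 at 1.06 ± 0.81 CPM per kb in treated and 0.563 ± 0.371 in control libraries. C5ar1 was at 0.590 ± 0.595 CPM per kb in treated and 0.160 ± 0.0625 in control libraries, and in controls it lay wholly below C3ar1.

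The 9 genes did not share one profile over the libraries. The likeness of 2 profiles was taken as the root mean square difference of their centred log2 levels over the 6 libraries, given here with no test. C2 and C1ra were the most alike at 0.241, followed by C1ra and C1s1 at 0.256 and by Serping1 and C2 at 0.277. C3 was nearest to Cfb at 1.13 and differed from C4b by 1.89. Control replicate 2 was the lowest control for 8 of the 9 genes, C4b being the exception, and control replicate 3 the highest control for 6.

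Outside the complement lists, the profiles nearest to the mean of the 9 genes belonged to Il10ra (0.165), Adgre1 (0.181), Clec2d (0.195), Syk (0.231) and A2m (0.249), among 12174 genes compared. Adgre1 encodes the macrophage antigen F4/80, Il10ra the interleukin-10 receptor and Syk a kinase of immune receptors. Adgre1 was at 3.75, 4.63 and 15.0 CPM in treated replicates 1, 2 and 3, against 2.69, 2.38 and 3.72 CPM in control replicates 1, 2 and 3. The profiles nearest to C3 were those of Hp (0.695), Pck1 (0.861), Gm38901 (1.24), Trf (1.29) and Sdc1 (1.38). Hp encodes haptoglobin, an acute phase plasma protein, and was at 24.8, 5.09 and 95.1 CPM in treated replicates 1, 2 and 3, against 1.72, 0.269 and 1.76 CPM in control replicates 1, 2 and 3. Pck1, a gluconeogenic enzyme of liver and fat, was at 14.7, 11.2 and 95.8 CPM in treated replicates 1, 2 and 3, against 10.7, 0.885 and 4.46 CPM in control replicates 1, 2 and 3. For both genes, as for C3, treated replicate 3 was the highest library and control replicate 2 the lowest.

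Of 53 other genes of the complement pathway, 51 were in the files and 31 passed the filter on low counts. None of the 31 passed edgeR's test (lowest adjusted p = 0.654), 3 were higher at an unadjusted p under 0.05 (Cpn1, Cd59a and Itgam), beside 3.99% of all genes, and DESeq2, which called 0.556% of all genes, and limma-voom called 0. Log2 fold changes were above 0 for 23 of the 31 genes, beside 52.8% of all genes, and below 0 for 8, and their median was 0.45. The groups were separate, with treated libraries higher, for 4 genes (7.07% of all genes tested) and, with treated libraries lower, for 3 (7.63%). Without treated replicate 3 the median was 0.08.

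Each of the 8 tested genes of classical and lectin initiation had a log2 fold change above 0, the median being 0.82. C1qc, a chain of the recognition protein C1q, was at 5.59, 10.6 and 47.2 CPM in treated replicates 1, 2 and 3, against 6.94, 3.42 and 11.0 CPM in control replicates 1, 2 and 3. Its log2 fold change was 1.56 ± 0.92 (SE), and 0.20 without treated replicate 3. The other chains stood close by, C1qa at 1.35 ± 0.91 and C1qb at 1.61 ± 0.98, both named after their values were seen. Masp1, a protease of the lectin route, was at 10.7, 7.66 and 6.68 CPM in treated replicates 1, 2 and 3, against 5.96, 6.35 and 6.15 CPM in control replicates 1, 2 and 3, without overlap, at 0.45 ± 0.22. The C1r-like protease C1rl did not overlap either, at 1.19 ± 0.53, and the scavenger collectin Colec12 was at 0.45 ± 0.73.

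In the alternative route Cfd encodes factor D, the protease that cleaves factor B and is also known as adipsin for its abundance in fat cells. It had 6, 103 and 283 counts in treated replicates 1, 2 and 3, against 19, 3 and 8 counts in control replicates 1, 2 and 3. Treated replicate 1 lay among the controls and treated replicates 2 and 3 above them, the order of the fat cell markers. The log2 fold change of Cfd was 3.93 ± 1.74 (SE), at an edgeR adjusted p of 0.737, and 1.73 without treated replicate 3. Properdin, encoded by Cfp, stabilises the alternative convertase and was at 0.31 ± 0.30.

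Of the 7 terminal pathway genes, 2 passed the filter. Hc, which encodes C5, had 329, 19 and 28 counts in treated replicates 1, 2 and 3, against 30, 14 and 9 counts in control replicates 1, 2 and 3. Its log2 fold change was 2.17 ± 1.01 (SE), 0.54 without treated replicate 1 and -0.51 with treated replicate 2 alone. C8g was at 0.26 ± 0.48. Among the genes below the filter, C8a, a chain of C8, had 116, 2 and 0 counts in treated replicates 1, 2 and 3, against 7, 0 and 2 counts in control replicates 1, 2 and 3. C9, the pore-forming protein, had 81, 2 and 0 counts in treated replicates 1, 2 and 3, against 5, 1 and 0 counts in control replicates 1, 2 and 3. C4bp, a plasma inhibitor of C4b, had 50, 3 and 0 counts in treated replicates 1, 2 and 3, against 12, 3 and 5 counts in control replicates 1, 2 and 3. These 3 genes were named after their values were seen and, like Alb and Fgb, were highest in treated replicate 1. C6 and C7, which join the terminal complex before C8, were highest in treated replicate 3 in CPM, with 12 and 8 counts there. Of the 20 pathway genes below the filter, 9 were highest in treated replicate 3 and 7 in treated replicate 1.

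**Figure D4:**
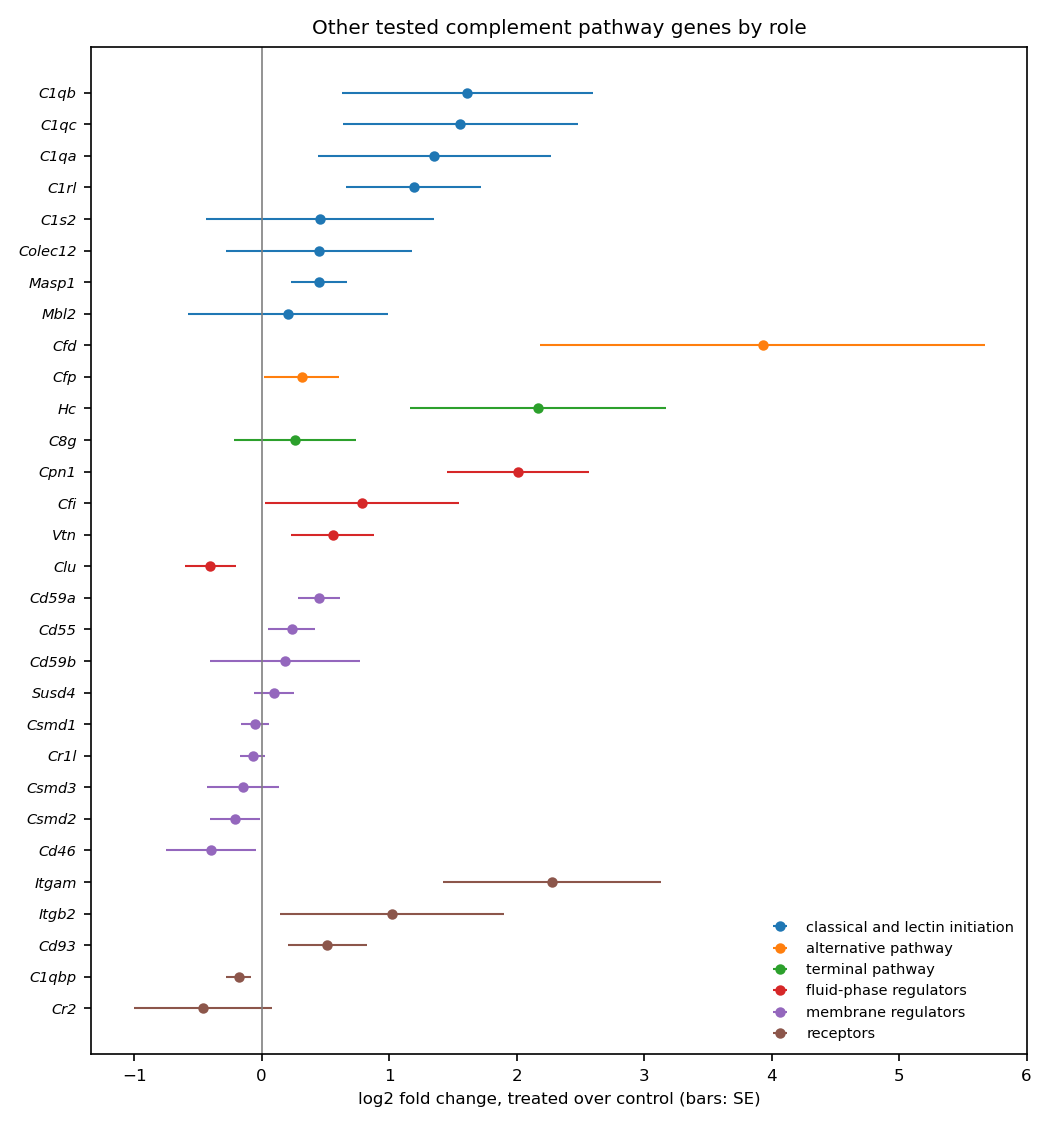
Log2 fold change (treated over control, bars are SE) of other tested complement pathway genes, ordered within their roles. Cfd is highest at 3.93 with an SE of 1.74, and membrane regulators lie within 0.45 of 0.

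Among the fluid-phase regulators, Cpn1, a chain of carboxypeptidase N, which inactivates C3a and C5a, was at 2.41, 0.906 and 1.35 CPM in treated replicates 1, 2 and 3, against 0.516, 0.308 and 0.338 CPM in control replicates 1, 2 and 3. The groups did not overlap, and the log2 fold change was 2.01 ± 0.56 (SE) at an edgeR adjusted p of 0.654. Clu, clusterin, which blocks the terminal complex, was at 219, 213 and 126 CPM in treated replicates 1, 2 and 3, against 247, 251 and 240 CPM in control replicates 1, 2 and 3. It lay below the controls in all 3 treated libraries, at -0.40 ± 0.20, and at -0.19 without treated replicate 3.

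The 9 tested membrane regulators had a median log2 fold change of -0.05, with 4 positive and 5 negative. Cd59a, which blocks insertion of C9, was at 44.1, 49.0 and 69.5 CPM in treated replicates 1, 2 and 3, against 38.7, 40.8 and 39.3 CPM in control replicates 1, 2 and 3, without overlap. Its log2 fold change was 0.45 ± 0.17 (SE), at an edgeR adjusted p of 0.721, and 0.23 without treated replicate 3. Cd55, decay-accelerating factor, was at 0.23 ± 0.18, and Csmd1, a large neuronal inhibitor of complement, at -0.05 ± 0.11. Among receptors, Itgam, the alpha chain of the phagocyte complement receptor on myeloid cells, was at 3.39, 6.69 and 26.9 CPM in treated replicates 1, 2 and 3, against 1.49, 2.04 and 4.05 CPM in control replicates 1, 2 and 3. Treated replicate 1 lay below control replicate 3, and the log2 fold change was 2.28 ± 0.86 (SE), or 1.01 without treated replicate 3. Cd93 was at 0.52 ± 0.31 and C1qbp, which binds C1q, at -0.18 ± 0.10.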

How the data were processed

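RNA-seq of 6 ganglion libraries was used, 3 treated and 3 control, grouped by their titles. The deposited values are raw exonic read counts per gene, 1 table per library, and the submitters' processing notes name the tools STAR 2.7.7a, bcl2fastq 2.20, edgeR and DESeq2 and the build mm10. Which program counted the reads, on which annotation and with what strand setting is not given in the sources used here. Libraries were made from about 6 ng of RNA with a strand-specific kit, per the labels' protocols. The protocol gives RNA integrity numbers of 6.6 to 9.1 as a range, not assigned to single libraries. Gene coordinates and exon lengths came from GENCODE M21 (GRCm38, the build of mm10), which matched 32663 of the 32719 genes.

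In R 4.3.3, edgeR 4.0.16 was run on the counts: filterByExpr with a minimum count of 10, TMM scaling, a robust quasi-likelihood F test and Benjamini-Hochberg adjustment over 16019 genes, with a threshold of 0.05. A log2 fold change over the square root of its F gave its SE. Single genes were also compared by two-sided exact permutation tests of mean log2 CPM with a prior count of 2. Alternatives were DESeq2 1.42.0, limma 3.58.1, other scalings and filters, a replicate block, C1rb and C1s2 summed with C1ra and C1s1, and each library left out.

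The 9 genes, the pathway and marker lists and the tests were chosen with earlier results of these data known. Named besides the 9 genes were the copies C1rb and C1s2, in each role the 2 pathway genes with the smallest p and the 2 with the highest mean CPM, the 5 nearest profiles to C3 and to the mean of the 9 genes among genes with a mean log2 CPM of at least 2, and cell markers that moved with them. C4a was not analysed here, and 1 pathway gene that the rule names is counted but not reported here.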

Additional observations from a re-analysis of the deposited data

How the results depend on the processing

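No alternative gave a different direction for C3, C4b, Cfb, Serping1, C3ar1 or C5ar1, while those of C2, C1ra and C1s1 turned in the settings given below. Of the 9 genes, edgeR called 0, DESeq2 1 (C4b) and edgeR with the replicate number as a block 1 (C3, log2 fold change 3.48, adjusted p = 0.00122), and 0 of those tested were called with any library left out, C5ar1 not being tested without treated replicate 2. The pathway list had 0 calls under all settings run. All genes called numbered 0 in the main test, 26 without a filter on low counts, 89 with DESeq2, 8 with limma-voom and sample weights, 1 with the replicate block, 0 to 9 with 1 library left out, and 35 with treated replicate 2 alone against the controls, a setting chosen after seeing the data. Same-numbered libraries deviated from their group means with correlations of 0.0142, 0.564 and 0.488 across genes for replicates 1, 2 and 3. Differently numbered libraries gave -0.495 to 0.253, the highest being treated replicate 1 with control replicate 2. The titles do not say what a replicate number marks, so the main test had no block, and whether the libraries are paired is not known. The scalings left the median of all genes within 0.1 of 0 on the log2 scale.

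Signs turned as follows, where the cause was not tested. With limma-voom, log2 fold changes were -0.026 for C2, -0.048 for Colec12 and -0.58 for C1s2. With sample weights they were -0.29 for C2, -0.18 for C1ra, -0.34 for Colec12, -0.024 for Cd55, 0.020 for Csmd1 and -0.61 for C1s2, and with the replicate block -0.012 for C1s2. With treated replicate 2 alone they were -0.38 for C2, -0.027 for C1ra, -0.28 for Colec12, -0.51 for Hc, -0.22 for Cd55 and 0.0044 for Csmd1. With 1 library left out the range was -0.42 to 0.65 for C2, -0.29 to 0.93 for C1ra, -0.073 to 1.22 for C1s1, -0.60 to 0.84 for Colec12, -0.14 to 0.049 for Csmd1 and -0.67 to 1.01 for C1s2. The median over the 9 genes ran from 0.16 to 1.31. Summing C4b with C4a was not run. Counts of 6 to 41 per library limit what can be said of C5ar1, and 3 libraries a group limit the rest.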
